A study of Mus musculus with 6 samples.

Results

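The genes of MHC class I presentation and of the immunoproteasome were examined in sorted liver endothelial cells of iron-loaded mice. The members were 10 genes picked by symbol, H2-K1, H2-D1, B2m, Tap1, Tap2, Tapbp, Psmb8, Psmb9, Psmb10 and Nlrc5, and all 10 were found among the 39179 genes of the deposited table. All animals were wild-type 129S6/SvEvTac males that began a purified diet at 3 weeks of age and were sampled 4 weeks later, at 7 weeks. The high_iron group (n = 3) received 10000 ppm carbonyl iron, and the control_iron group (n = 3) received 37 ppm iron as ferric citrate. Cells were sorted as CD31+ and CD146+ and against CD45, CD64, class II and lineage markers, so class I was not part of the gate. The labels call the samples biological replicates. Whether a sample came from 1 mouse or from a pool is not given in the sources used here.

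Class I molecules show peptides from inside a cell to CD8+ T cells. The immunoproteasome, in which interferon-inducible catalytic subunits replace the constitutive ones, cuts proteins into such peptides, a transporter carries them into the endoplasmic reticulum, and a loading complex places them on a heavy chain bound to beta-2 microglobulin. NLRC5 is the transactivator that drives many of these genes from a conserved promoter module, whose boxes include a cyclic AMP response core and an inverted CCAAT box. Liver sinusoidal endothelial cells are known to take up circulating antigen and to present it to CD8+ T cells, often with a tolerant outcome.

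The promoters of the heavy chain genes H2-K1 and H2-D1 and of B2m are shown so that the letters of that module can be compared between genes. Each runs from 250 bases before to 50 after the RefSeq transcription start (GRCm38.p6, the C57BL/6J reference, so the 129S6 alleles may differ). The windows are chr17:34000298-34000597 on the minus strand for H2-K1, chr17:35262844-35263143 on the plus strand for H2-D1 and chr2:122147437-122147736 on the plus strand for B2m. Capitals mark matches, on either strand, to the kappaB-like site GGGATTCCC, the interferon-response-like element GAANNGAAA, the cyclic AMP response core TGACG and CCAAT. The letters gaaactgaaa in the B2m window have a base more between gaa and gaaa. They are not a match to GAANNGAAA and are not marked, so an unmarked window can hold a similar element.
H2-K1: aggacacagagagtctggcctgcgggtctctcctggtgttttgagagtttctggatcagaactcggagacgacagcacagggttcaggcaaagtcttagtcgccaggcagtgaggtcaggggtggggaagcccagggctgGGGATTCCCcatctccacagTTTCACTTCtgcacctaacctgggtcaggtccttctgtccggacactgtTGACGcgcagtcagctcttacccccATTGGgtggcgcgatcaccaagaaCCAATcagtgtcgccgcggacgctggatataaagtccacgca
H2-D1: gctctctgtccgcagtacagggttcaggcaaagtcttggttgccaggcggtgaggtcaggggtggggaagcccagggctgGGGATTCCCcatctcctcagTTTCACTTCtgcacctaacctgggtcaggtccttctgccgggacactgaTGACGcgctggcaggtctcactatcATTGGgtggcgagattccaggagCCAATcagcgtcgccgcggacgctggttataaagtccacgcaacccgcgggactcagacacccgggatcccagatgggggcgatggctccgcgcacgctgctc
B2m: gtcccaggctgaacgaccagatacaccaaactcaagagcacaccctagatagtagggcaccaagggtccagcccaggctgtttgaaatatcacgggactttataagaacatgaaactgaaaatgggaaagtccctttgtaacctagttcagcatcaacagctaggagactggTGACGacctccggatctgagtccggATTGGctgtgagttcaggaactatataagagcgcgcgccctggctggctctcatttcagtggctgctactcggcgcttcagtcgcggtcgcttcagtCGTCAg

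The H2-K1 and H2-D1 windows aligned over 228 bases with 90.4% identity and held the same motifs in the same order. TGACG was followed by ATTGG, which is CCAAT on the other strand, after exactly 20 bases in H2-K1, H2-D1 and B2m. That spacing, chosen after it was seen, occurred in 26 of 27025 promoters (0.0962%, 1 window a gene, both strands), among them also that of H2-M3, another class I heavy chain gene. With 10 to 40 bases between them the pair occurred in 1.04% of promoters. The kappaB-like site, whose letters were also set after the windows were seen, was in 100 promoters (0.370%), among the listed pathway genes those of H2-K1, H2-D1, H2-Q6, H2-Q7, Irf1 and Pdcd1lg2. Matches to GAANNGAAA were in 7.56%, to TGACG in 21.0% and to CCAAT in 37.9% of promoters. No matches to different motifs overlapped within the windows shown, while the pair is made of the same TGACG and CCAAT matches. A match is a description of the letters and says nothing of binding in these cells.

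Tap1 and Psmb9 are read outward from one short stretch, and their windows, chr17:34187306-34187605 and chr17:34187281-34187580, shared 275 bases. The Tap1 window (plus strand) is shown for that shared stretch.
Tap1: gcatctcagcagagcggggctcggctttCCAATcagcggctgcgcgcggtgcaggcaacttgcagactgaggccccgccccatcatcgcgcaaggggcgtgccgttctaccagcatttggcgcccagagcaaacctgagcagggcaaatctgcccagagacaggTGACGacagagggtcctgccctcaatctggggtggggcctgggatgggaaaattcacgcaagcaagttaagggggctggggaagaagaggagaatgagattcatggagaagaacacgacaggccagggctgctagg

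**Figure D1:**
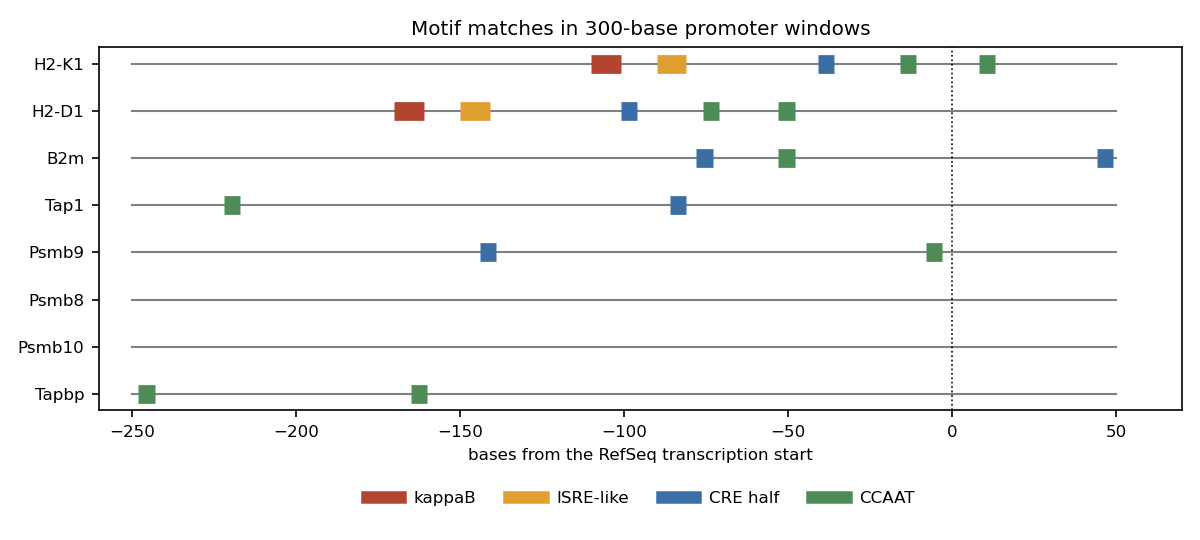
Motif matches in the promoter windows of the 8 genes with an entry in the RefSeq table, against the distance in bases from the transcription start. H2-K1 and H2-D1 hold 5 matched positions each, in the same order, and Psmb8 and Psmb10 hold no match to these letters in this window. Distances follow the annotated starts: the kappaB-like match is at -110 in H2-K1 and at -170 in H2-D1. The similar letters gaaactgaaa of B2m are not a match and are not drawn.

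Among the 8 promoters matched by symbol, those of Psmb8 and Psmb10 held none of these letters, that of Tapbp held CCAAT alone, and those of Tap1 and Psmb9 held 1 TGACG and 1 CCAAT each, which are the same bases read from either side. On the genome Psmb9, Tap1, Psmb8 and Tap2 lie side by side on chromosome 17, from 34181987 to 34216321 (GRCm38, GENCODE M21). Tapbp and H2-K1 lie before that cluster and H2-D1 after it on the same chromosome. B2m is on chromosome 2, and Psmb10 and Nlrc5 are on chromosome 8.

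Libraries held 12963510 to 21663543 reads in genes, and levels are given in the deposited CPM, reads scaled to a normalised library size. All 14 listed liver endothelial markers were tested, with a summed level of 22105 to 22654 CPM in high_iron and 23413 to 25230 CPM in control_iron libraries. These ranges did not overlap. Of the 14 endothelial markers 3 had a higher mean log2 level in high_iron, the median log2 fold change was -0.19, and 0 were called. Markers of macrophages and Kupffer cells, which the gate should leave out, summed to 532, 267 and 364 CPM in high_iron replicates 1 to 3, against 77.2, 180 and 97.3 CPM in control_iron replicates 1 to 3. Of the 15 tested of 16 listed, all 15 had a higher mean log2 level in high_iron, and none was at 0 in all libraries. By limma 3 of the 15 rose (adjusted p under 0.05), where 0.832% of all genes tested did. Lymphocyte markers summed to between 26.7 and 34.5 CPM in high_iron and between 11.0 and 15.3 CPM in control_iron libraries. Of 18 listed 4 were tested, and all 4 had a higher mean log2 level in high_iron (median log2 fold change 0.98). Of these 1 rose, where 0.832% of all genes tested did. Lck was at 11.3 to 13.9 CPM in high_iron and 5.45 to 9.47 CPM in control_iron libraries. The B cell gene Ighm was at 4.72 to 8.92 CPM in high_iron and 1.30 to 2.68 CPM in control_iron libraries. Cd79b, also of B cells, was at 3.01 to 3.59 CPM in high_iron and 0.519 to 1.37 CPM in control_iron libraries. The T cell receptor gene Trac was at 3 reads or fewer in each library. Dendritic cell markers summed to between 425 and 510 CPM in high_iron and between 381 and 431 CPM in control_iron libraries. Of 10 listed 5 were tested, with 4 higher and 0 called. Most of this sum was Zbtb46, at 275 to 283 CPM in high_iron and 252 to 313 CPM in control_iron libraries. Irf8 came next, at 112 to 166 CPM in high_iron and 75.1 to 116 CPM in control_iron libraries. Hepatocyte markers summed to between 510 and 948 CPM in high_iron and between 216 and 882 CPM in control_iron libraries, and all 12 had a higher mean log2 level in high_iron, with 0 called by limma. Stellate cell markers summed to between 237 and 1060 CPM in high_iron and between 147 and 1125 CPM in control_iron libraries, with 5 of 8 higher and 0 called. In bulk RNA, fewer cells of a type and less RNA per cell cannot be told apart. Each of these cell types also expresses class I genes, and their part in the values below was not tested.

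None of the 10 class I genes passed the test for a change on the high-iron diet. By limma on log2(CPM + 1), 0 of 10 passed a Benjamini-Hochberg adjusted p of 0.05, where 1.02% of the 12980 genes tested passed (0.832% higher and 0.193% lower in high_iron). At an unadjusted p under 0.05 there was 1, H2-D1, where 12.1% of all genes tested were under it. On the recovered reads 0 of the 10 were called by edgeR (0.924% of all genes) and 0 by DESeq2 (3.27%). Of the 10 estimates 7 were positive and 3 negative, and their median was 0.10 on the log2 scale, beside -0.0034 over all genes tested. The signs were the same under each rescaling, but these moved H2-K1 only from 0.0692 to 0.0646 and 0.069. They could thus hardly turn a sign, while leaving out 1 library turned H2-K1, B2m and Psmb8. The groups were separate, library by library, for 2 of the 10, H2-D1 and Tapbp, both higher in high_iron. Among all genes tested 17.9% were separate, 9.46% higher and 8.44% lower. All 10 passed the filter on low values.

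**Figure D2:**
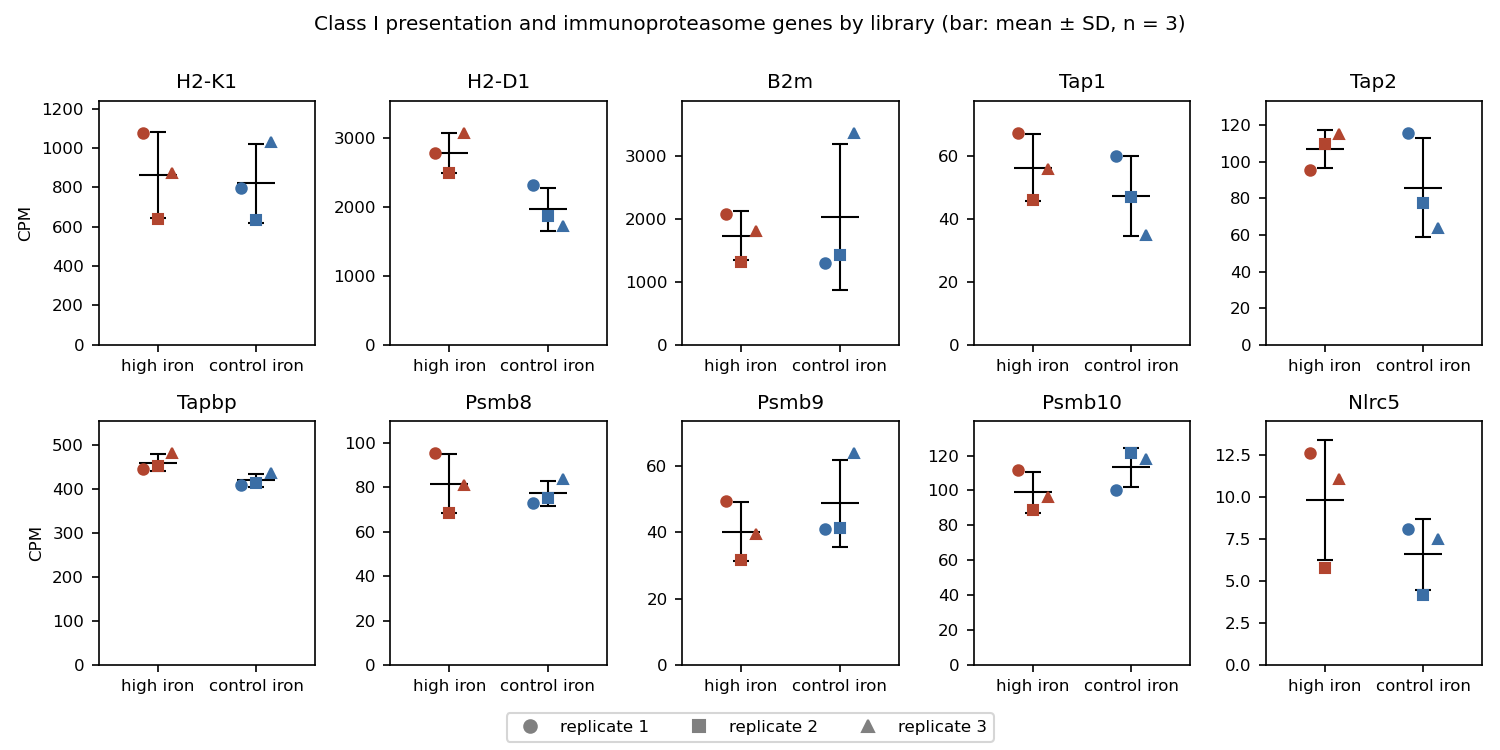
CPM of the 10 genes in each library, high iron left and control iron right; points are libraries by replicate number and bars the mean ± SD (n = 3). H2-D1 and Tapbp are the genes whose groups do not overlap, and the B2m point of control_iron replicate 3 lies at 3377 CPM, above the other 5 libraries.

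H2-D1 (ENSMUSG00000073411), a classical heavy chain, lies at chromosome 17 from 35262730 to 35267499 on the plus strand, with 7 merged exons. It was at 2784, 2491 and 3073 CPM in high_iron replicates 1 to 3, against 2311, 1867 and 1714 CPM in control_iron replicates 1 to 3. Each high_iron library was above each control_iron library. The log2 fold change was 0.51 ± 0.18 (± SE), a 1.42-fold difference with a 95% interval of 1.08 to 1.88, and an unadjusted limma p of 0.018. It did not pass after adjustment over all genes (adjusted p = 0.29; edgeR 0.25; DESeq2 0.059).

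H2-K1 (ENSMUSG00000061232), the other classical heavy chain of this set, lies at chromosome 17 from 33996017 to 34000347 on the minus strand. It was at 1078, 641 and 872 CPM in high_iron replicates 1 to 3, against 798, 633 and 1032 CPM in control_iron replicates 1 to 3. The groups covered nearly the same range, with a log2 fold change of 0.07 ± 0.23 (± SE) and a 95% interval of 0.74-fold to 1.50-fold (adjusted p = 0.92). The sign turned without high_iron replicate 1 (-0.11) and without control_iron replicate 2 (-0.10). The promoter windows of both genes, shown above, were 90.4% identical, and H2-D1 separated the groups by library while H2-K1 did not. The difference between their fold changes was not tested. Heavy chain genes share sequence: 12.8% of the 50-base windows of H2-D1 transcripts and 9.63% of those of H2-K1 also occur in transcripts of other genes, so reads there are uncertain.

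B2m (ENSMUSG00000060802) encodes beta-2 microglobulin, the light chain that all class I heavy chains need to reach the surface. It was at 2081, 1317 and 1818 CPM in high_iron replicates 1 to 3, against 1308, 1428 and 3377 CPM in control_iron replicates 1 to 3. Control_iron replicate 3 was higher than the other 5 libraries, which lay in 1 range. The log2 fold change was -0.11 ± 0.34 (± SE), with a 95% interval of 0.55-fold to 1.56-fold, the lowest bound of the 10 genes (adjusted p = 0.91), and -0.23 by edgeR. Without control_iron replicate 3 it was 0.32, without high_iron replicate 2 it was 0.07, and neither passed. No 50-base window of its transcript occurs in another gene.

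Per gene length, B2m was the most abundant member. It averaged 2031 ± 454 RPKM (CPM per 1000 bases of gene) in high_iron and 2380 ± 1357 RPKM in control_iron libraries (SD, n = 3 each), rank 18 of the genes tested by mean level. H2-D1 averaged 1082 ± 113 and 764 ± 121 RPKM in high_iron and control_iron libraries, rank 37, and H2-K1 369 ± 93.5 and 351 ± 85.6 RPKM in high_iron and control_iron libraries, rank 95. H2-D1 was 2.35, 3.53 and 3.21 times the RPKM of H2-K1 in high_iron replicates 1 to 3, and 2.63, 2.68 and 1.51 times in control_iron replicates 1 to 3. These ratios overlapped between groups, with control_iron replicate 3 the lowest. B2m was 2.25, 1.59 and 1.78 times the RPKM of H2-D1 in high_iron replicates 1 to 3, and 1.70, 2.30 and 5.92 times in control_iron replicates 1 to 3. The ratios are descriptions and were not tested.

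Tap1 and Tap2 encode the paired subunits of the peptide transporter TAP. Tap1 was at 67.3, 45.8 and 55.7 CPM in high_iron replicates 1 to 3, against 60.002, 46.8 and 34.8 CPM in control_iron replicates 1 to 3. Tap2 was at 95.6, 110 and 115 CPM in high_iron replicates 1 to 3, against 116, 77.8 and 63.6 CPM in control_iron replicates 1 to 3. For both genes the groups overlapped, and control_iron replicate 1 was the highest and replicate 3 the lowest of its group. Log2 fold changes were 0.27 ± 0.22 for Tap1 (adjusted p = 0.63) and 0.36 ± 0.21 for Tap2 (± SE, adjusted p = 0.51). Their 95% intervals ran from 0.86-fold to 1.68-fold and from 0.93-fold to 1.76-fold. Gm15821, an antisense long noncoding RNA, covers 14.1% of the merged exon length of Tap2, and the library kit does not mark strand.

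Tapbp encodes tapasin, which holds empty class I molecules at the transporter. It was at 447, 453 and 482 CPM in high_iron replicates 1 to 3, against 410, 413 and 436 CPM in control_iron replicates 1 to 3. The groups did not overlap and both were narrow. The log2 fold change was 0.13 ± 0.12 (± SE), with a 95% interval of 0.91-fold to 1.32-fold (adjusted p = 0.67). An antisense gene model, Gm19412, overlaps 24.9% of its exon length.

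The immunoproteasome subunits did not move together in sign, and none passed. Psmb8, the chymotrypsin-like subunit that takes the place of Psmb5, was at 95.5, 68.6 and 81.1 CPM in high_iron replicates 1 to 3, against 72.9, 75.4 and 83.6 CPM in control_iron replicates 1 to 3. Its control_iron values lay inside the high_iron range, and its log2 fold change was 0.07 ± 0.15 (± SE, adjusted p = 0.87), or -0.048 without high_iron replicate 1. Psmb9, which takes the place of Psmb6, was at 49.4, 31.7 and 39.4 CPM in high_iron replicates 1 to 3, against 41.0, 41.5 and 64.0 CPM in control_iron replicates 1 to 3. Control_iron replicate 3 was the highest of the 6, as for B2m, and the log2 fold change was -0.27 ± 0.22 (± SE, adjusted p = 0.64). Psmb10, which takes the place of Psmb7, was at 112, 89.0 and 96.3 CPM in high_iron replicates 1 to 3, against 100.4, 121 and 118 CPM in control_iron replicates 1 to 3. The groups overlapped, with a log2 fold change of -0.19 ± 0.14 (± SE, adjusted p = 0.60).

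The 95% intervals were 0.83-fold to 1.33-fold for Psmb8, 0.59-fold to 1.17-fold for Psmb9 and 0.70-fold to 1.09-fold for Psmb10. Psmb9 and Tap1, whose promoter windows share 275 bases, had log2 fold changes of -0.27 and 0.27. Their exons overlap over 212 bases on opposite strands, 5.79% of the merged exon length of Psmb9. Psmb8 overlaps an antisense model, Gm20496, over 14.7% of its exon length.

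**Figure D3:**
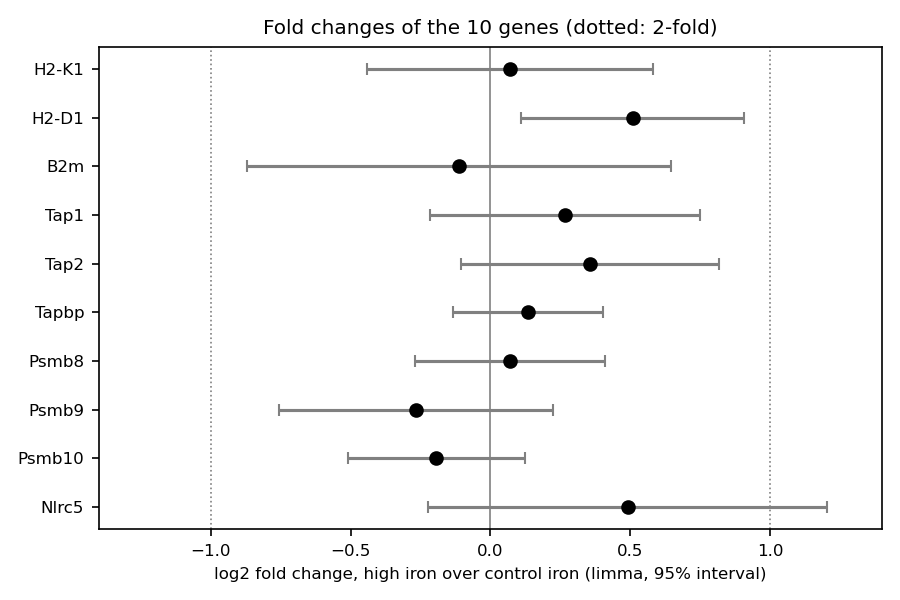
Log2 fold change of each gene, high iron over control iron, with its 95% limma interval; dotted lines mark 2-fold. The interval of H2-D1 lies above 0 and the other 9 include it, and that of Nlrc5 reaches past 2-fold.

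Nlrc5 encodes the class I transactivator and was the least abundant member, at rank 11144 of the genes tested by mean RPKM. It was at 12.6, 5.78 and 11.1 CPM in high_iron replicates 1 to 3, from 246, 98 and 144 reads, against 8.10, 4.18 and 7.52 CPM in control_iron replicates 1 to 3, from 156, 90 and 132 reads. Replicate 2 was the lowest in both groups, and the groups overlapped. The log2 fold change was 0.49 ± 0.32 (± SE, adjusted p = 0.56), with a 95% interval of 0.86-fold to 2.30-fold. That upper bound was the highest of the 10, and a 2-fold higher level was within the interval.

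The members shared part of their order across libraries. High_iron replicate 1 was the highest of its group for 7 of the 10 genes and replicate 2 the lowest for 8. The exceptions at the top were H2-D1, Tap2 and Tapbp, which were highest in replicate 3. In control_iron, replicate 3 was the highest for 5 genes (H2-K1, B2m, Tapbp, Psmb8 and Psmb9) and the lowest for 3 (H2-D1, Tap1 and Tap2). The summed macrophage markers had the same order in high_iron, with 532 CPM in replicate 1, 364 CPM in replicate 3 and 267 CPM in replicate 2. In control_iron they did not follow the members, at 180 CPM in replicate 2, 97.3 CPM in replicate 3 and 77.2 CPM in replicate 1, while replicate 2 was the highest library for 1 member, Psmb10. Summed hepatocyte markers ran the other way in high_iron, at 510 CPM in replicate 1, 739 CPM in replicate 3 and 948 CPM in replicate 2. Summed stellate cell markers did too, at 237, 642 and 1060 CPM in the same libraries. In control_iron both sums were also lowest in replicate 1 and highest in replicate 2. The part of these cell types in the order was not tested.

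Immunoproteasome subunits were set beside the constitutive subunits they replace, per gene length and without a test. Psmb8 was 2.30, 1.82 and 2.16 times the RPKM of Psmb5 in high_iron replicates 1 to 3, and 2.28, 1.66 and 1.95 times in control_iron replicates 1 to 3. Psmb10 was 2.87, 2.65 and 2.86 times the RPKM of Psmb7 in high_iron replicates 1 to 3, and 3.30, 3.26 and 2.41 times in control_iron replicates 1 to 3. Psmb9 was below its partner, at 0.20, 0.13 and 0.15 times the RPKM of Psmb6 in high_iron replicates 1 to 3, and 0.17, 0.14 and 0.23 times in control_iron replicates 1 to 3. In each pair the ratios of the groups overlapped. RPKM depends on the gene length in the table, which was 3976 bases for Psmb9 and 868 bases for Psmb5, so the levels of a pair rest on the gene models used.

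**Figure D4:**
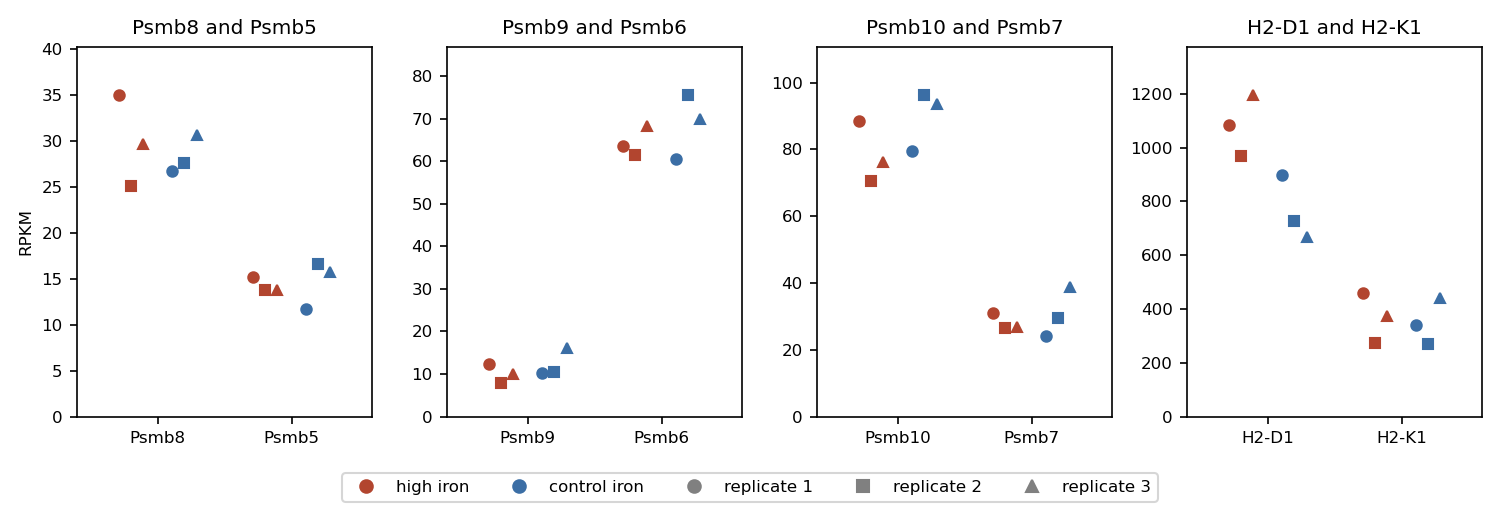
RPKM of 3 immunoproteasome subunits beside their constitutive counterparts, and of H2-D1 beside H2-K1, in each library by group and replicate. Psmb8 and Psmb10 lie above their counterparts and Psmb9 lies below its own in all 6 libraries.

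The other genes of the pathway were followed in 10 lists with 104 tested genes in all, of which 5 rose and 0 fell, where 0.832% of all genes tested rose and 0.193% fell. The count of calls was 0 without high_iron replicate 3, without control_iron replicate 3 and with no filter on low values. It was 1 without control_iron replicate 2, and 2 without high_iron replicate 1, of which 1 rose and 1 fell. The 5 that rose with all libraries were the cytokine signalling inhibitor Socs3 and 4 class II genes named below. No class I heavy chain, loading factor or proteasome subunit was among them.

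Of 18 other class I heavy chain genes listed 11 were tested, and 0 passed by limma, with 0 at an unadjusted p under 0.05 and 0 by edgeR or DESeq2. Their median was -0.02 on the log2 scale. H2-T23, which encodes the nonclassical molecule Qa-1, was the most abundant at 361 ± 39.6 CPM in high_iron and 421 ± 45.3 CPM in control_iron libraries (SD, n = 3 each; adjusted p = 0.56). H2-T24 averaged 48.8 ± 7.01 CPM in high_iron and 62.5 ± 13.2 CPM in control_iron libraries (adjusted p = 0.49). Of 6 class I-like genes tested, 0 passed, with 0 at an unadjusted p under 0.05 and 0 by edgeR or DESeq2. Hfe, the class I-like protein that is mutated in hereditary iron overload, was at 129 ± 5.30 CPM in high_iron and 121 ± 10.6 CPM in control_iron libraries (log2 fold change 0.09 ± 0.13 (± SE), adjusted p = 0.80). Fcgrt, the neonatal Fc receptor, was at 2508 ± 57.9 and 2649 ± 238 CPM in high_iron and control_iron libraries (adjusted p = 0.87). Cd1d1, which presents lipids, was at -0.44 on the log2 scale (adjusted p = 0.49), Procr, the CD1-like protein C receptor, 0.16 (0.69) and Azgp1, a soluble class I-like protein, 0.29 (0.81).

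Among 13 genes of peptide loading and trimming, limma and edgeR called 0 and DESeq2 called Calr. Before adjustment 2 were under 0.05, as were 12.1% of all genes tested. Calr, calreticulin, a chaperone of the loading complex, was at 434, 497 and 454 CPM in high_iron replicates 1 to 3, against 633, 669 and 792 CPM in control_iron replicates 1 to 3. The groups did not overlap, and its log2 fold change was -0.59 ± 0.14 (± SE, limma adjusted p = 0.093; DESeq2 0.0058). Ganab, the glucosidase II subunit that trims glycans on new glycoproteins, was at -0.38 on the log2 scale (adjusted p = 0.27). Canx and Pdia3, the other chaperones that assist folding of the heavy chain, had log2 fold changes of -0.01 ± 0.13 and 0.04 ± 0.22 (± SE), with adjusted p-values of 0.98 and 0.96. Erap1, the aminopeptidase that trims peptides in the endoplasmic reticulum, had one of 0.24 (adjusted p = 0.66). The cytosolic peptidase genes Ide and Lap3 had 0.31 and 0.40 (adjusted p = 0.41 and 0.48).

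All 7 constitutive core beta subunits had a negative log2 fold change, from -0.28 to -0.03 with a median of -0.12, and 0 passed by limma, edgeR or DESeq2, with 0 at an unadjusted p under 0.05. Psmb5, Psmb6 and Psmb7 had log2 fold changes of -0.03 ± 0.19, -0.09 ± 0.13 and -0.11 ± 0.19 (± SE), and Psmb2, Psmb4 and Psmb1 had -0.28, -0.25 and -0.17. The signs held under each rescaling, but these moved Psmb5 only to -0.033 and -0.029 and could hardly turn a sign. With 1 library left out, Psmb5 was at 0.062 without control_iron replicate 2 and Psmb7 at 0.067 without control_iron replicate 3. Of 9 tested proteasome activator and assembly genes 0 passed, with 0 at an unadjusted p under 0.05 and 0 by edgeR or DESeq2. Psme1 and Psme2, the subunits of the interferon-inducible activator PA28, had log2 fold changes of -0.34 ± 0.18 and -0.34 ± 0.20 (± SE, adjusted p = 0.47 and 0.52). Psme4, another activator, had 0.26 (adjusted p = 0.44) and Psmg4, an assembly chaperone, -0.39 (adjusted p = 0.58).

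Regulators of class I transcription were examined in 18 tested genes, with 0 called by limma, edgeR or DESeq2. Of these 3 were at an unadjusted p under 0.05, as were 12.1% of all genes tested. Irf1, which binds interferon response elements, was at 188 ± 5.95 and 181 ± 11.3 CPM in high_iron and control_iron libraries (SD, n = 3 each; adjusted p = 0.87). Irf8, an interferon regulatory factor of myeloid cells, and Irf9, the DNA-binding part of the type I interferon complex, were at 0.52 (adjusted p = 0.33) and 0.28 (0.39) on the log2 scale, and Stat2, a transcription factor of type I interferon signalling, 0.38 (0.45). Rfx5, a subunit of the factor that holds NLRC5 at the promoter module, had 0.36 ± 0.23 (± SE, adjusted p = 0.54). Ciita, the class II counterpart of Nlrc5, stayed at or below 0.94 CPM in each library and was not tested.

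Of 9 genes for interferon receptors, Janus kinases and their inhibitors, Socs3 rose. Socs3, an inhibitor of cytokine receptor signalling, was at 67.8, 73.7 and 74.6 CPM in high_iron replicates 1 to 3, against 42.3, 38.9 and 29.2 CPM in control_iron replicates 1 to 3, with no overlap. Its log2 fold change was 0.97 ± 0.16 (± SE, adjusted p = 0.031). The call was lost in 5 of the 6 fits with 1 library left out, all but that without control_iron replicate 1: adjusted p was 0.084, 0.13 and 0.18 without high_iron replicates 1, 2 and 3, and 0.069 and 0.051 without control_iron replicates 2 and 3. Socs1, which restrains interferon-gamma signalling, was at 60.1, 63.3 and 72.9 CPM in high_iron replicates 1 to 3, against 16.2, 41.4 and 60.5 CPM in control_iron replicates 1 to 3 (adjusted p = 0.38). With no filter on low values Socs3 was at an adjusted p of 0.078. Tyk2 and Ifnar1, a kinase and a receptor chain of type I interferon signalling, were at 0.34 and 0.19 on the log2 scale (adjusted p = 0.48 and 0.69).

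Of 22 tested interferon-gamma-inducible genes, 20 were above 0 on the log2 scale (median 0.31), where 6426 of the 12980 genes tested were. Limma and edgeR called 0, DESeq2 called Cxcl9, and 7 were under 0.05 before adjustment, as were 12.1% of all genes. The groups were separate for 6 genes that were higher (9.46% of all genes) and 1 that was lower in high_iron (8.44% of all genes). Summed macrophage markers were also higher in high_iron, at 267 to 532 CPM against 77.2 to 180 CPM in control_iron libraries. So were summed lymphocyte markers, at 26.7 to 34.5 CPM against 11.0 to 15.3 CPM. The part of either cell type was not tested. Cxcl9, the chemokine for CXCR3+ T cells, was that lower one, at 78.7, 42.3 and 43.6 CPM in high_iron replicates 1 to 3, against 103, 100.4 and 167 CPM in control_iron replicates 1 to 3. Its log2 fold change was -1.17 ± 0.27 (± SE, limma adjusted p = 0.083; DESeq2 0.0025), and it passed without high_iron replicate 1 (0.042). The guanosine triphosphatase genes Irgm2 and Gbp3 were at 0.64 and 0.57 on the log2 scale (adjusted p = 0.22 and 0.27), and Irgm2 passed without control_iron replicate 1 (0.047). Icam1, the adhesion molecule, had 0.78 ± 0.28 (± SE, adjusted p = 0.30) and passed without control_iron replicate 1 (0.0092). The list also holds Irf1 and Socs1.

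**Figure D5:**
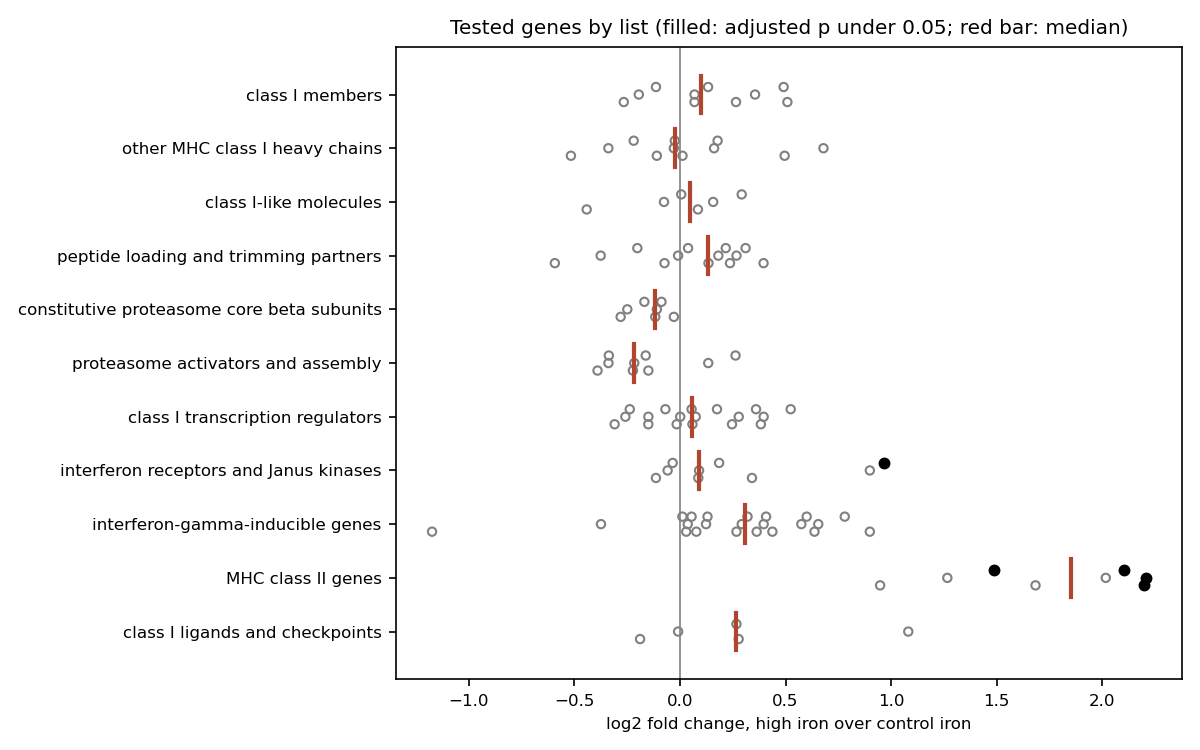
Log2 fold change of each tested gene, high iron over control iron, by list; filled points passed an adjusted p of 0.05 and red bars are list medians. The 4 filled class II genes lie between 1.49 and 2.21, and the 10 class I members lie between -0.27 and 0.51. The other MHC class I heavy chains lie between -0.52 and 0.68.

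Among MHC class II genes 4 of 8 tested rose, where 0.832% of all genes did, and the median of the 8 was 1.85 on the log2 scale. For all 8 each high_iron library was above each control_iron library, as for 9.46% of all genes. Class II was a negative marker of the sort. Cd74, the invariant chain of class II, was at 414, 128 and 197 CPM in high_iron replicates 1 to 3, against 29.9, 60.8 and 56.0 CPM in control_iron replicates 1 to 3. H2-Aa, the alpha chain of the class II molecule I-A, was at 40.2, 16.4 and 25.4 CPM in high_iron replicates 1 to 3, against 3.95, 5.99 and 4.56 CPM in control_iron replicates 1 to 3. In both genes high_iron replicate 1 was the highest library. Their log2 fold changes were 2.20 ± 0.39 for Cd74 (± SE, adjusted p = 0.037) and 2.21 ± 0.30 for H2-Aa (adjusted p = 0.011). H2-Ab1, the beta chain of I-A, had 2.10 ± 0.36 (± SE, adjusted p = 0.034). H2-DMb1, a chain of the class II peptide editor, had 1.49 ± 0.27 (± SE, adjusted p = 0.037), which at its low level became 2.56 with a pseudocount of 0.1 and 2.70 by edgeR. The count of 4 became 1 without high_iron replicate 1 or control_iron replicate 2, and 0 without high_iron replicate 3, without control_iron replicate 3 or with no filter on low values. The difference between the class I and class II fold changes was not tested. Summed macrophage markers, at 267 to 532 CPM in high_iron and 77.2 to 180 CPM in control_iron libraries, moved with them. Summed lymphocyte markers did too, at 26.7 to 34.5 CPM in high_iron and 11.0 to 15.3 CPM in control_iron libraries. Summed dendritic cell markers overlapped, at 425 to 510 CPM in high_iron and 381 to 431 CPM in control_iron libraries. That sum is mostly Zbtb46 and Irf8, so it cannot show whether the low dendritic cell markers moved. The part of these cell types was not tested.

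Of 10 listed costimulatory, checkpoint and NKG2D ligand genes, 5 were tested and 0 passed by limma, edgeR or DESeq2. At an unadjusted p under 0.05 there was 1, where 12.1% of all genes tested were under it. Cd274, which encodes the inhibitory ligand PD-L1, was at 13.7 ± 3.09 CPM in high_iron and 11.6 ± 4.36 CPM in control_iron libraries (SD, n = 3 each; adjusted p = 0.73). Ulbp1, a ligand of the activating receptor NKG2D, was at 2.96 ± 0.40 and 3.45 ± 2.73 CPM in high_iron and control_iron libraries (adjusted p = 0.99).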

How the data were processed

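RNA of sorted liver endothelial cells was measured in 6 libraries, made with a low-input cDNA kit that does not mark strand. Per the submitters' processing notes, STAR, HTSeq, edgeR and build mm10 were used; roles, versions and annotation are not given there. Values the authors deposited are a normalized signal named CPM (reads over a scaled library size) and an RPKM, which equals 1000 × CPM / length. All 114253 values above 0 (100%) were whole reads within 0.001 read, and edgeR on these reads called 120 genes. CPM columns summed to unequal totals, so they were treated as a scaled signal and the log-scale test was kept. Libraries held 12963510 to 21663543 reads, and 3 reads equal 0.139 to 0.231 CPM; counting error only.

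The test was limma 3.58.1 (R 4.3.3) on log2(CPM + 1), group as the only term, for 12980 genes with CPM of at least 1 in at least 3 libraries, Benjamini-Hochberg adjusted over all, threshold 0.05. Folds on this scale understate changes of low genes. edgeR 4.0.16 and DESeq2 1.42.0 on recovered reads, other pseudocounts, filters and scalings, a replicate block and leave-one-out fits were alternatives. Of 134 listed pathway genes 133 were found. Members and lists were chosen with earlier results of these data known. Named genes were the 10 members, 15 preset genes (1 is not reported here), and in each list those that passed plus the next 4 by p, or, in lists with neither a call nor a preset gene, the 2 most abundant. Promoters come from RefSeq (GRCm38.p6), positions from GENCODE M21.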

Additional observations from a re-analysis of the deposited data

How the results depend on the processing

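Across the other settings none of the 10 class I genes passed, with adjusted p-values of 0.059 to 0.74 for H2-D1. With 1 library left out, log2 fold changes changed sign in at least 1 fit for H2-K1 (-0.11 to 0.27), B2m (-0.36 to 0.32), Psmb8 (-0.048 to 0.19), Canx (-0.05 to 0.021), Pdia3 (-0.20 to 0.21), Psmb5 (-0.17 to 0.062), Psmb7 (-0.27 to 0.067), Azgp1 (-0.25 to 0.74), Cd274 (-0.063 to 0.46) and Ulbp1 (-0.26 to 0.46). Ulbp1 also turned to 0.039 and 0.012 with pseudocounts of 0.1 and 0.5. The counts of calls over all genes, over the 10 lists and over class II genes (133, 5 and 4) were 34, 0 and 0 with no filter, which tests 23979 genes, and 424, 10 and 7 with DESeq2. They ran from 27 to 183, 0 to 7 and 0 to 4 with 1 library left out; the cause was not tested. Labels give both groups the numbers 1 to 3 and state no pairing, so the numbers were not taken as pairs. Whether same-numbered samples were handled together is not given. Deviations of same-numbered libraries correlated by 0.128, 0.32 and 0.063. Other combinations ran from -0.388 to 0.198, the highest being high_iron replicate 1 with control_iron replicate 3. The value for replicate 2 was the largest of the 9 combinations, and the summed stellate and hepatocyte markers were lowest in replicate 1 and highest in replicate 2 of both groups. With the replicate block the counts were 402, 11 and 7, none of the 10 class I genes passed, and Cxcl9 (adjusted p = 0.0040), Socs1 (0.039) and Icam1 (0.042) did. Intervals show what 3 libraries a group could not resolve: a 2-fold rise of Nlrc5 was within its interval.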
